A study of Homo sapiens with 4 samples.

Results

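The genes described here encode proteins that copy DNA at the replication fork and the complex that marks replication origins. They were 42 named genes, chosen by symbol, and all 42 were found in the table of 48162 genes, each on 1 row. The cells were MDA-MB-231, a long-established human line from a breast cancer that lacks hormone receptors and HER2 amplification, grown in DMEM with fetal bovine serum. Of the 4 RNA libraries, made from poly(A)-selected RNA, 2 came from cells treated with MGH-CP1 at 10 µM for 24 h and 2 from cells given the vehicle. MGH-CP1 is described in the series title as a compound that blocks palmitoylation of TEAD proteins, transcription factors through which YAP and TAZ act. Nothing in the labels says that replicates were separate cultures, so p-values reflect only how far these libraries scatter, and that scatter could be technical. The vehicle is not named in the labels, and all results come from 1 cell line at 1 dose and 1 time.

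DNA is copied once per cell cycle. The origin recognition complex (ORC) marks the starting points and recruits the factors that load the MCM helicase. The GINS complex joins the helicase as it is activated, primase and polymerase alpha lay down the first stretch of each strand, and polymerases epsilon and delta extend it while held by the ring-shaped clamp PCNA. Replication factor C (RFC) opens that ring, FEN1 and LIG1 trim and join the short lagging-strand pieces, RPA coats the exposed single strands, and CAF-1 packs the new DNA into chromatin. In dividing cells many of these mRNAs are made mainly around the entry into S phase, under control of E2F transcription factors.

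Depth was 16790645 to 18485701 reads per library, recovered from the FPKM steps, and each gene of the set had 46 to 4286 reads in a library. Values are FPKM (reads scaled for gene length and library depth), so levels can be compared between genes. Such comparisons are less sure for genes that overlap another expressed gene, as given below. Of the line's markers, the mesenchymal VIM stood at 193 to 199 FPKM with MGH-CP1 and 147 to 171 FPKM with vehicle, and the hormone receptor gene PGR was listed at 0 in all 4 libraries. Values of the immune marker PTPRC were at most 0.0895 FPKM. Other markers were less clear-cut. EPCAM stood at 7.91 to 9.95 FPKM and ERBB2 at 24.5 to 26.3 FPKM over the 4 libraries. PDGFRB, at 0.984 to 1.59 FPKM, and COL1A1, at 1.85 to 2.79 FPKM, were low but not at 0. In bulk RNA, fewer cells in S phase and less of an mRNA per cell cannot be told apart.

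Of the 42 genes, 41 were lower with MGH-CP1 at an adjusted p under 0.05, none was higher and ORC4 did not pass (limma, log2(FPKM + 1) scale, Benjamini-Hochberg adjustment over 11790 tested genes). Over all genes tested, 25.1% were called lower and 20.0% higher. A fall of at least 2-fold on that scale was called for 30 of the 42, against 2.34% of all genes tested. With 41 called lower, only ORC4 could have been higher at an unadjusted p under 0.05, and it was not. Voom on the recovered reads called 41 lower and 0 higher. The median log2 fold change of the set was -1.27, against -0.02 over all genes tested. Summed over the set, the level was 373 and 379 FPKM in the MGH-CP1 libraries, against 898 and 872 FPKM in the vehicle libraries. Both MGH-CP1 values lay below both vehicle values for the same 41 genes, a pattern found in 39.4% of all genes tested.

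**Figure D1:**
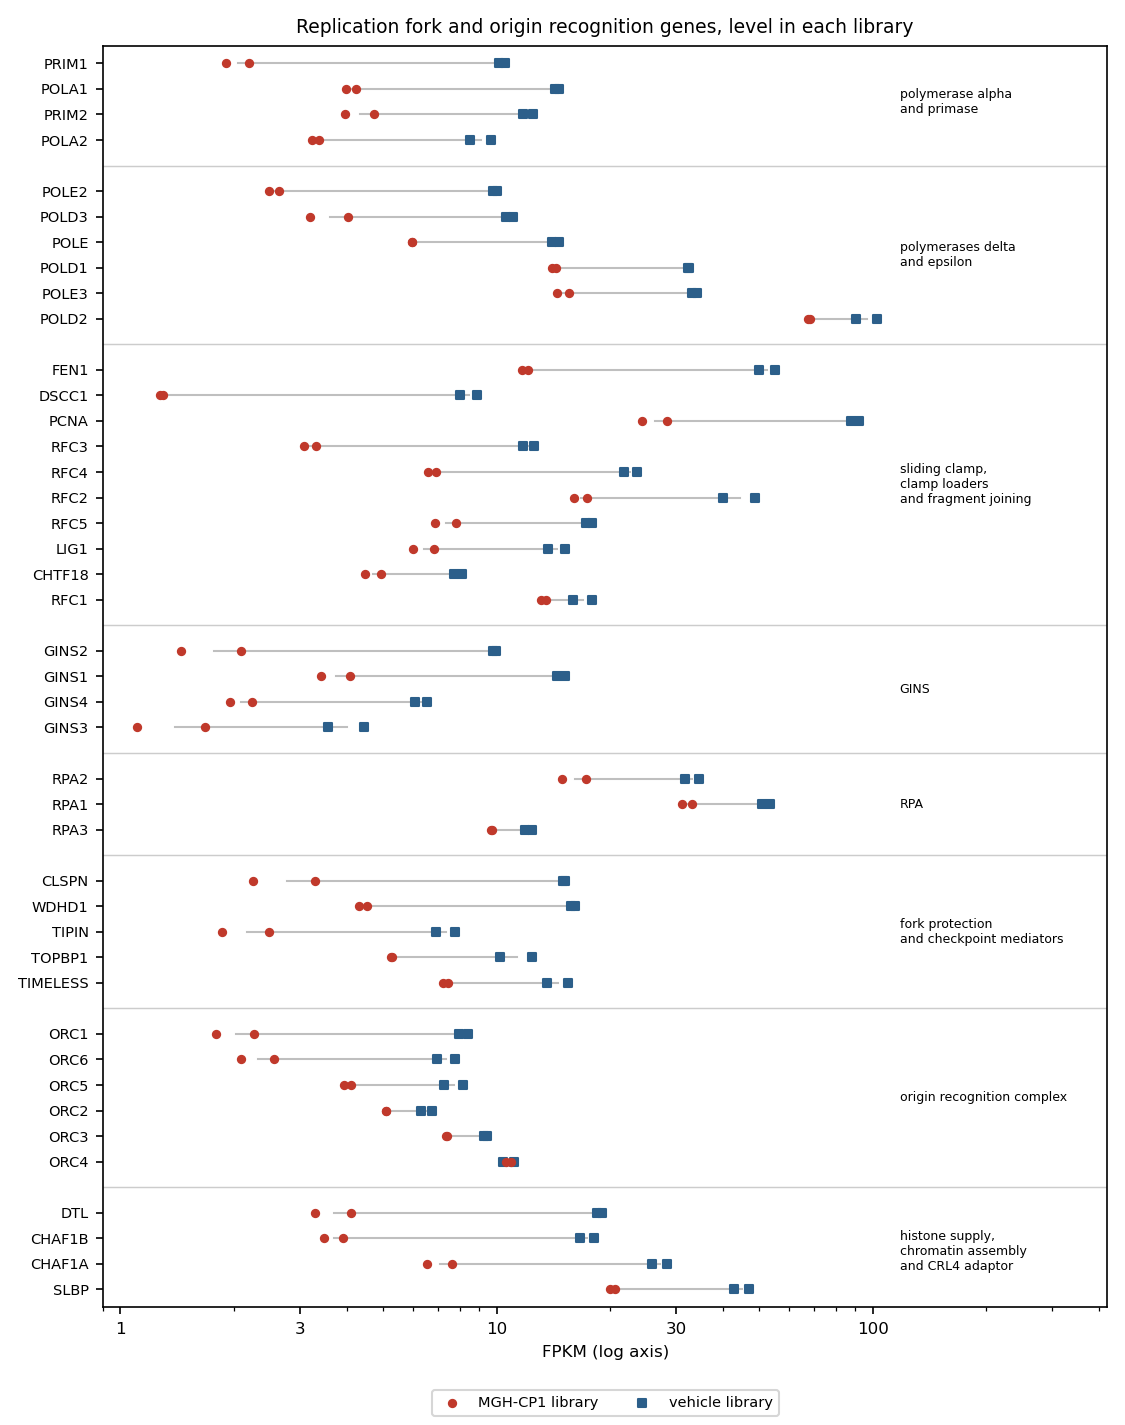
Level of each of the 42 genes in FPKM on a log axis, in the 2 MGH-CP1 libraries (circles) and the 2 vehicle libraries (squares), with a line between group means and genes grouped by role. The circles lie left of the squares for every gene except ORC4, and the distance runs from a narrow gap for RFC1, RPA3, ORC2 and ORC3 to a wide one for DSCC1, GINS2 and CLSPN.

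All 37 genes of the set with a promoter in the RefSeq table (GRCh38.p14, 250 bases before to 50 after the start) were searched for 4 E2F-type words on both strands, TTTCCCGC, TTTGGCGC, TTTCGCGC and TTTGCCGC. A match was found for 15 of the 37 (40.5%), while 3.31% of all 35116 promoters of that table hold one. Counted per gene, as for the set, a match was found for 6.89% of the 9044 tested genes with a promoter in the table, which leaves out the rest of the 11790 tested genes. The following lines give these matches in capitals within 30 bases, read 5′ to 3′ along the gene. The words are those bound by E2F factors in general, and a match is a description of letters, not a binding site. Any part of E2F factors in the falls was not tested.

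CLSPN, chr1:35769965-35769994, minus strand: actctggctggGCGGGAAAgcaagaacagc
DTL, chr1:212035729-212035758, plus strand: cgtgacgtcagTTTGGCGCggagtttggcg
GINS2, chr16:85688967-85688996, minus strand: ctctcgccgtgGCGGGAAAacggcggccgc
GINS1, chr20:25407667-25407696, plus strand: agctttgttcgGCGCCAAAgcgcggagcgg
PCNA, chr20:5126663-5126692, minus strand: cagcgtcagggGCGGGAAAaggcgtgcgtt
RFC3, chr13:33818083-33818112, plus strand: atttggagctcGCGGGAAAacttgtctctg
POLE2, chr14:49688201-49688230, minus strand: ctgcggcggtgGCGCCAAAtcgcaaatatg
POLA1, chrX:24693770-24693799, plus strand: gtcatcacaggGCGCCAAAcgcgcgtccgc
TIPIN, chr15:66356733-66356762, minus strand: ccccgcacggaTTTGGCGCcaaacgctgcg
POLA2, chr11:65261898-65261927, plus strand: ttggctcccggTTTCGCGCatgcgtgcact
POLE, chr12:132687342-132687371, minus strand: tgggtgggagcGCGCCAAAtttctcccctg
GINS3, chr16:58392455-58392484, plus strand: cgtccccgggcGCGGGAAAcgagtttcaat
LIG1, chr19:48170440-48170469, minus strand: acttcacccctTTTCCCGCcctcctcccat
TOPBP1, chr3:133661930-133661959, minus strand: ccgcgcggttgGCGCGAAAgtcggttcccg
ORC3, chr6:87590112-87590141, plus strand: cgcgagggcgcGCGGGAAAtcccgagtgca

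In TIPIN the shown word overlaps a second copy of itself on the other strand. The order above is that of the size of the fall on the log2(FPKM + 1) scale. It runs through the whole range of the set: on that scale CLSPN had the largest fall of the 42 and ORC3 one of the smallest. The median log2 fold change was -1.60 over the 15 genes with a match and -1.15 over the 22 genes without one, and the ranges overlapped. A fall of at least 2-fold was called for 13 of the 15 and for 14 of the 22. Of the 9044 tested genes with a promoter in the table, 8.67% of those with a match and 1.86% of those without were called so. Their median log2 fold changes were -0.16 with and -0.01 without a match. The set is part of these tested genes, and it gives 13 of the 54 genes with a match called lower by at least 2-fold. FEN1, CHAF1B and PRIM1 fell about as far as the leading genes with a match and had none of these letters in the window.

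The other words searched included CCAAT, found in 20 of the 37 genes (54.1%), in 43.4% of the 9044 tested genes and in 34.6% of all promoters. The TEAD-type GGAATG was found in 7 of the 37 (18.9%), in 14.9% of the tested genes and in 14.0% of all promoters. The CHR word TTTGAA, an element of many mitotic promoters, was found in 1 of the 37, POLE3, in 13.4% of the tested genes and in 15.2% of all promoters. Of the 37 genes, 6 have more than 1 promoter in the table, and a match in any of them counts. The upstream sequences of PCNA, which holds 1 E2F-type and 3 CCAAT words, and of ORC4, the gene that did not pass the test, are given in full over 250 bases, with both kinds of word in capitals. Each gene has another promoter in the table that is not shown, and in ORC4 neither holds these words.

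PCNA, chr20:5126623-5126872, minus strand: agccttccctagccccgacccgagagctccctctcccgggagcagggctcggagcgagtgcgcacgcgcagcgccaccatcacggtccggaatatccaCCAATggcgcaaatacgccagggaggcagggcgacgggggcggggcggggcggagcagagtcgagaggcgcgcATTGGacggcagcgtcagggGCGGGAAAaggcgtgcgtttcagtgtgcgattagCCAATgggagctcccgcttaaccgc
ORC4, chr2:148020738-148020987, minus strand: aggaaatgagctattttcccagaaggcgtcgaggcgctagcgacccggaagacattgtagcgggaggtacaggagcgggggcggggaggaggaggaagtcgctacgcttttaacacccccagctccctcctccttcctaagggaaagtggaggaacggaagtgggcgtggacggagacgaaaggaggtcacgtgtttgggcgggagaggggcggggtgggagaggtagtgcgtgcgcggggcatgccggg

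**Figure D2:**
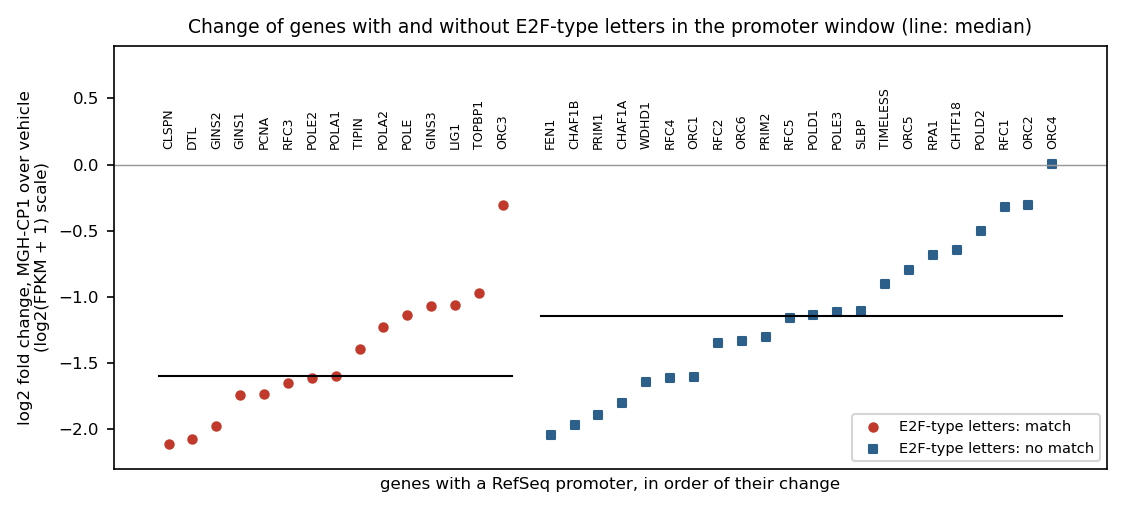
Log2 fold change of MGH-CP1 over vehicle (log2(FPKM + 1) scale) for the 37 genes with a RefSeq promoter, split by a match (circles) or no match (squares) to the E2F-type words, with the median as a line. The medians are -1.60 with and -1.15 without a match, and both groups span small and large falls.

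The origin recognition complex split into subunits that fell and subunits that hardly moved. ORC1 (hg19 chromosome 1, 52838501 to 52870131, minus strand), the large ATPase subunit that completes the complex in G1, had 1.79 and 2.26 FPKM in the MGH-CP1 libraries, against 8.41 and 7.94 FPKM in the vehicle libraries. On the log2 scale it fell by 1.60 ± 0.11 (SE; limma, adjusted p = 5.88e-05). ORC6 (chromosome 16, 46723555 to 46732306, plus strand), the smallest subunit, had 2.55 and 2.09 FPKM with MGH-CP1, against 6.94 and 7.77 FPKM with vehicle. ORC1 kept 24.8% and ORC6 31.6% of the vehicle level, and the groups lay far apart. ORC5, another ATPase-fold subunit, was intermediate with 3.93 and 4.10 FPKM with MGH-CP1 and 7.26 and 8.16 FPKM with vehicle (log2 fold change -0.79 ± 0.09).

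ORC2 and ORC3, which form part of the stable core of the complex, moved little. ORC2 had 5.07 and 5.09 FPKM with MGH-CP1, against 6.31 and 6.75 FPKM with vehicle, which is -0.31 ± 0.08 on the log2 scale (limma, adjusted p = 0.0202). ORC3 had 7.39 and 7.32 FPKM with MGH-CP1, against 9.24 and 9.41 FPKM with vehicle (limma, adjusted p = 0.0124). The groups did not overlap for either gene, but both calls rest on narrow margins. Leaving out vehicle replicate 2, or MGH-CP1 replicate 1 or 2, ended the ORC2 call, and leaving out MGH-CP1 replicate 1 or 2 ended the ORC3 call. The adjusted p then lay between 0.0657 and 0.0994 in limma.

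ORC4 (chromosome 2, 148691732 to 148779147, minus strand), an ATPase-fold core subunit, stood at 10.9 and 10.6 FPKM in the MGH-CP1 libraries and at 10.4 and 11.1 FPKM in the vehicle libraries. The MGH-CP1 values fell between the vehicle values. The 95% interval of the log2 difference ran from -0.17 to 0.17 (limma, adjusted p = 0.987). The proportions of the ORC mRNAs therefore differed: ORC1 was 0.164 and 0.213 of ORC4 with MGH-CP1, against 0.809 and 0.713 with vehicle, on the FPKM scale. The corresponding ratios of ORC6 to ORC4 were 0.234 and 0.197 with MGH-CP1, against 0.667 and 0.697 with vehicle. Such ratios between genes, here and for the other complexes, are given as values and were not tested.

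**Figure D3:**
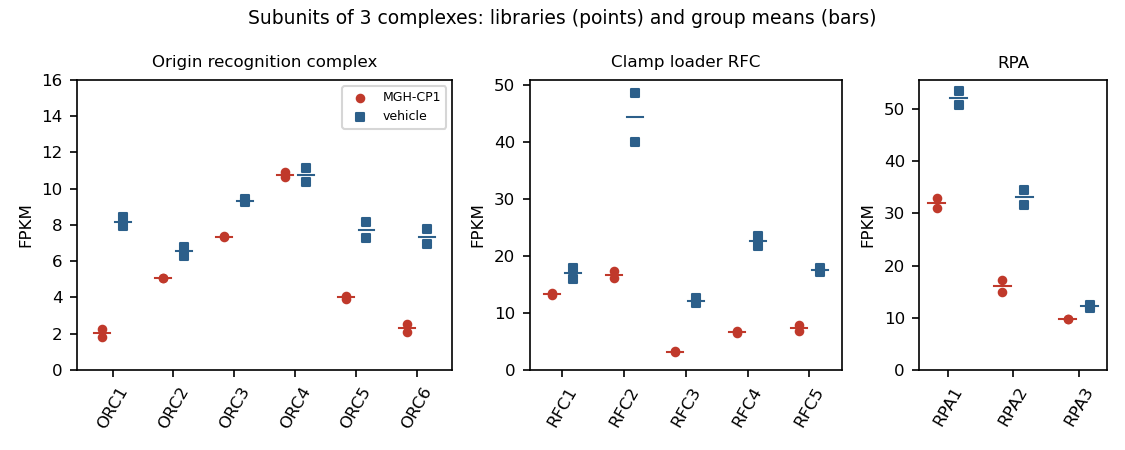
FPKM of the subunits of the origin recognition complex, the clamp loader RFC and RPA in each MGH-CP1 library (circles) and vehicle library (squares), with the group mean as a bar and each axis starting at 0. ORC4 sits at the same height in both groups and RFC1, RPA3, ORC2 and ORC3 are slightly lower with MGH-CP1, while the remaining subunits are clearly lower.

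The GINS complex fell as a whole, with all 4 subunit genes lower by at least 2-fold. GINS2 (chromosome 16, 85709804 to 85723679, minus strand) had 1.45 and 2.10 FPKM with MGH-CP1, against 9.96 and 9.76 FPKM with vehicle, a change of -1.98 ± 0.12 on the log2 scale (limma, adjusted p = 4.85e-05). GINS1 had 3.42 and 4.07 FPKM with MGH-CP1, against 14.5 and 15.2 FPKM with vehicle. GINS1 was the most abundant of the subunit mRNAs in both groups. GINS4 had 1.96 and 2.24 FPKM with MGH-CP1, against 6.06 and 6.52 FPKM with vehicle, and kept 33.3% of its vehicle level. GINS3 had 1.68 and 1.10 FPKM with MGH-CP1, against 4.44 and 3.55 FPKM with vehicle, the lowest vehicle level of the 42 genes (log2 fold change -1.07 ± 0.15). It rested on 60 to 263 reads a library, and its standard error was the widest of the 42.

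Polymerase alpha and primase, which start each new strand, were lower in all 4 subunits. PRIM1 (chromosome 12, 57125406 to 57146157, minus strand), the catalytic primase subunit, had 1.91 and 2.20 FPKM with MGH-CP1, against 10.1 and 10.6 FPKM with vehicle. This was a 5.04-fold difference of the means and a change of -1.89 ± 0.09 on the log2 scale (limma, adjusted p = 2.25e-05). PRIM2, the regulatory primase subunit, had 4.72 and 3.97 FPKM with MGH-CP1, against 11.8 and 12.5 FPKM with vehicle. PRIM1 was thus 0.404 and 0.555 of PRIM2 with MGH-CP1, against 0.862 and 0.844 with vehicle, although both genes fell. The authors' table types PRIM2 as a processed transcript.

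The catalytic subunit gene POLA1 had 3.97 and 4.22 FPKM with MGH-CP1, against 14.3 and 14.6 FPKM with vehicle (log2 fold change -1.60 ± 0.08). POLA2, the accessory subunit, had 3.37 and 3.23 FPKM with MGH-CP1, against 8.51 and 9.66 FPKM with vehicle (log2 fold change -1.23 ± 0.09). The libraries of each group lay close together in both genes, and the gap between groups was larger than that spread.

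The replicative polymerases delta and epsilon fell unevenly. POLE2 (chromosome 14, 50110273 to 50155140, minus strand), the second subunit of polymerase epsilon, led with 2.48 and 2.63 FPKM with MGH-CP1, against 10.1 and 9.77 FPKM with vehicle (log2 fold change -1.62 ± 0.08; limma, adjusted p = 2.93e-05). The catalytic subunit gene POLE had 5.96 and 5.95 FPKM with MGH-CP1, against 14.6 and 14.0 FPKM with vehicle. Its hg19 gene span overlaps GOLGA3 and ANKLE2 on the same strand and PGAM5 on the other, at 24.3, 7.80 and 13.5 FPKM on average, so its level is uncertain. POLE3, a histone-fold subunit that also serves a chromatin remodeller, had 15.5 and 14.5 FPKM with MGH-CP1, against 33.1 and 34.2 FPKM with vehicle.

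Within polymerase delta the order was POLD3, POLD1, POLD2. POLD3, the subunit that helps bind PCNA, had 4.02 and 3.19 FPKM with MGH-CP1, against 11.1 and 10.6 FPKM with vehicle (log2 fold change -1.37 ± 0.10). The catalytic subunit gene POLD1 had 14.0 and 14.4 FPKM with MGH-CP1, against 32.5 and 32.3 FPKM with vehicle (log2 fold change -1.14 ± 0.06). POLD2, the scaffold subunit, stood at 67.2 and 68.1 FPKM with MGH-CP1 and at 103 and 90.1 FPKM with vehicle (log2 fold change -0.50 ± 0.07; limma, adjusted p = 0.0014). POLD2 was the most abundant mRNA of the 42 in each library, and it was 4.79 and 4.74 times POLD1 with MGH-CP1, against 3.15 and 2.79 times with vehicle. POLD4, the smallest subunit and no member of the set, did not pass, at 2.74 and 4.27 FPKM with MGH-CP1 and 2.59 and 1.13 FPKM with vehicle (limma, adjusted p = 0.0677).

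PCNA (chromosome 20, 5095599 to 5107272, minus strand), the clamp that holds the polymerases on DNA, had 24.4 and 28.3 FPKM with MGH-CP1, against 91.8 and 87.8 FPKM with vehicle. The log2 fold change was -1.73 ± 0.08 (limma, adjusted p = 1.93e-05). Its named pseudogenes in the table were listed at 0 throughout. FEN1 (chromosome 11, 61560109 to 61564716, plus strand), the nuclease that cuts the displaced flap of lagging-strand pieces, had 11.7 and 12.1 FPKM with MGH-CP1, against 54.9 and 49.9 FPKM with vehicle. At -2.04 ± 0.07 on the log2 scale it had the smallest adjusted p of the set (limma, 8.26e-06). Its span overlaps the same-strand gene FADS2 over 4265 bases, at 27.5 FPKM on average, so reads could be split between them. LIG1, the ligase that seals the pieces, averaged 6.40 ± 0.596 FPKM with MGH-CP1 and 14.5 ± 1.08 FPKM with vehicle (SD, n = 2 each), a log2 fold change of -1.06 ± 0.09. FEN1 was 1.72 and 2.03 times LIG1 with MGH-CP1, against 3.60 and 3.64 times with vehicle.

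The clamp loader showed the same kind of split as ORC, with 1 subunit nearly level. RFC1 (chromosome 4, 39289076 to 39367995, minus strand), the large subunit, had 13.1 and 13.5 FPKM with MGH-CP1, against 15.9 and 18.0 FPKM with vehicle. Its log2 fold change was -0.32 ± 0.08 (limma, adjusted p = 0.012), and the call was lost without MGH-CP1 replicate 1 (limma, adjusted p = 0.0748). The small subunits RFC2, RFC3, RFC4 and RFC5 all fell, with log2 fold changes of -1.35, -1.65, -1.61 and -1.16. RFC3, the largest of these falls, averaged 3.20 ± 0.165 FPKM with MGH-CP1 and 12.2 ± 0.594 FPKM with vehicle. On the FPKM scale RFC3 was 0.235 and 0.245 of RFC1 with MGH-CP1, against 0.737 and 0.702 with vehicle.

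The alternative loader that acts in sister chromatid cohesion uses CHTF18 in place of RFC1, together with DSCC1. DSCC1 (chromosome 8, 120846216 to 120868250, minus strand) averaged 1.29 ± 0.0178 FPKM with MGH-CP1 and 8.42 ± 0.607 FPKM with vehicle, and kept 15.3% of its vehicle level, the least of the 42 genes. CHTF18 averaged 4.70 ± 0.331 FPKM with MGH-CP1 and 7.90 ± 0.278 FPKM with vehicle (log2 fold change -0.64 ± 0.09). The 2 mRNAs stood near 1 to 1 with vehicle, with DSCC1 at 1.04 and 1.09 of CHTF18, whereas the ratios were 0.285 and 0.263 with MGH-CP1. DSCC1 rested on 51 reads in each MGH-CP1 library.

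RPA had a median log2 fold change of -0.69, above that of every class but ORC (-0.55), and none of its 3 subunits reached 2-fold on the log2(FPKM + 1) scale. RPA1, the large DNA-binding subunit, had 31.0 and 33.0 FPKM with MGH-CP1, against 53.4 and 50.9 FPKM with vehicle (log2 fold change -0.69 ± 0.06; limma, adjusted p = 0.000174). RPA2, the subunit phosphorylated under replication stress, had 17.3 and 14.9 FPKM with MGH-CP1, against 34.5 and 31.7 FPKM with vehicle. RPA3, the smallest subunit, had 9.70 and 9.66 FPKM with MGH-CP1, against 12.5 and 11.9 FPKM with vehicle. The groups did not overlap for any of the subunits, but the RPA3 call (limma, adjusted p = 0.0104) was lost without either MGH-CP1 library (limma, adjusted p = 0.0646 and 0.0686). RPA3 also shares 77897 bases of its span with a gene on the opposite strand at 4.59 FPKM, and the use of strand in counting is not given in the sources used here.

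RPA2 lay just outside the 2-fold limit, with a log2 fold change of -0.997, and TOPBP1 followed at -0.97. Just inside were LIG1 at -1.06 and GINS3 at -1.07. Because 1 FPKM is added before the logarithm, the limit is stricter for genes of low level, and the FPKM means of RPA2 and TOPBP1 differed 2.05-fold and 2.15-fold.

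Among proteins that travel with the fork and signal to the checkpoint, CLSPN (chromosome 1, 36185819 to 36235568, minus strand) had the largest fall of the set on the log2(FPKM + 1) scale. It encodes claspin, the mediator through which ATR activates CHK1, and had 2.25 and 3.29 FPKM with MGH-CP1, against 15.2 and 15.0 FPKM with vehicle. Its log2 fold change was -2.11 ± 0.13 (limma, adjusted p = 4.64e-05), and 8 of the 11790 tested genes fell by more. With replicate 1 of either group left out, CLSPN no longer had the largest fall of the set. WDHD1, which ties the helicase to polymerase alpha, had 4.30 and 4.51 FPKM with MGH-CP1, against 15.8 and 16.1 FPKM with vehicle (log2 fold change -1.65 ± 0.07).

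TIPIN and TIMELESS encode partners that form the fork protection complex. TIPIN had 2.49 and 1.86 FPKM with MGH-CP1, against 6.92 and 7.75 FPKM with vehicle (log2 fold change -1.40 ± 0.12). TIMELESS had 7.41 and 7.19 FPKM with MGH-CP1, against 15.5 and 13.7 FPKM with vehicle (log2 fold change -0.91 ± 0.08). Both fell in both libraries, and TIPIN was 0.335 and 0.258 of TIMELESS with MGH-CP1, against 0.445 and 0.568 with vehicle. TOPBP1, the scaffold that activates ATR and helps fire origins, had 5.27 and 5.24 FPKM with MGH-CP1, against 10.2 and 12.4 FPKM with vehicle.

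All 4 genes of histone supply, chromatin assembly and the CRL4 adaptor were lower by at least 2-fold, CHAF1A, CHAF1B and DTL by more than the median of the set and SLBP by less. CHAF1A (chromosome 19, 4402659 to 4445015, plus strand), the large subunit of the histone chaperone CAF-1, had 6.55 and 7.59 FPKM with MGH-CP1, against 28.4 and 25.9 FPKM with vehicle (log2 fold change -1.81 ± 0.09; limma, adjusted p = 2.12e-05). CHAF1B, the middle subunit, had 3.48 and 3.91 FPKM with MGH-CP1, against 16.7 and 18.1 FPKM with vehicle (log2 fold change -1.97 ± 0.09). CHAF1B shares 771 bases with the same-strand gene MORC3, at 10.3 FPKM on average. Across the set, 4 genes overlap a same-strand gene and 11 an opposite-strand one of at least 1 FPKM on average, by as little as 7 bases. DTL (chromosome 1, 212208919 to 212280742, plus strand), the CUL4 ubiquitin ligase adaptor that destroys CDT1 on PCNA-bound chromatin, had 3.30 and 4.10 FPKM with MGH-CP1, against 19.1 and 18.5 FPKM with vehicle (log2 fold change -2.08 ± 0.10). SLBP, which binds the stem-loop of replication-dependent histone mRNAs, had 20.6 and 20.0 FPKM with MGH-CP1, against 42.8 and 47.1 FPKM with vehicle (log2 fold change -1.11 ± 0.07).

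**Figure D4:**
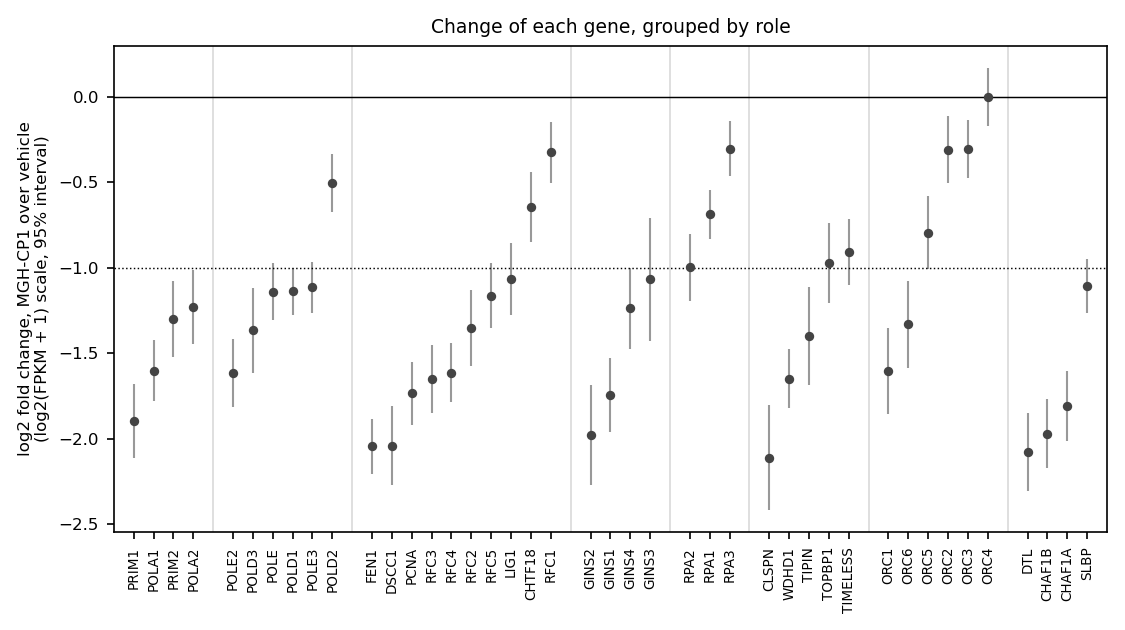
Log2 fold change of MGH-CP1 over vehicle for each gene with its 95% interval, on the log2(FPKM + 1) scale, grouped by role in the order of the plot of levels by library, with a dotted line at a 2-fold fall. Falls run from -2.11 (CLSPN) to about 0 (ORC4), and the ORC, clamp loader and RPA groups each hold a subunit at -0.33 or above.

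Other genes of DNA replication were read from further lists to place the set. For comparison, 25.1% of all genes tested were called lower, 20.0% higher and 2.34% lower by at least 2-fold. In helicase loading and activation all 17 genes were lower, 13 of them by at least 2-fold, with a median of -1.60. The extremes were MCM10, at 1.32 and 1.56 FPKM with MGH-CP1 and 11.4 and 11.7 FPKM with vehicle, and RECQL4, at 10.9 and 10.4 FPKM with MGH-CP1 and 17.6 and 16.8 FPKM with vehicle. Of 15 other fork and lagging-strand genes 10 were lower and none higher, with a median of -0.52. DNA2, a nuclease that trims long flaps, had the largest of these falls (log2 fold change -1.65 ± 0.10).

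Of 8 fork checkpoint genes 4 were lower and 4 did not pass, with a median of -0.34. CHEK1, the kinase downstream of claspin, fell by 0.94 on the log2 scale, while RAD17 did not pass, at 0.01 ± 0.08 (SE). Of 7 other histone chaperone genes 6 were lower, with a median of -1.14. ASF1B, which hands histones to CAF-1, had 13.2 and 14.0 FPKM with MGH-CP1, against 40.8 and 43.1 FPKM with vehicle, whereas its paralog ASF1A had 5.61 and 4.89 FPKM with MGH-CP1 and 5.31 and 5.57 FPKM with vehicle.

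Of the 8 tested partners of DTL and SLBP 7 were lower, none by 2-fold, with a median of -0.41. DDB1, which links DTL to CUL4, did not pass, at 137 and 146 FPKM with MGH-CP1 and 130 and 133 FPKM with vehicle (limma, adjusted p = 0.176). Of 12 tested DNA polymerase genes that act outside the fork, 3 were lower, 1 was higher and 8 did not pass, with a median of 0.02, and the share called lower was close to the 25.1% over all genes tested. The lower end was POLQ, the polymerase of microhomology-mediated end joining, with a log2 fold change of -0.92 ± 0.14. POLQ had 0.586 and 0.585 FPKM with MGH-CP1, against 1.73 and 2.32 FPKM with vehicle. Its means differed 3.46-fold, which the added 1 FPKM shrinks, and it reached the filter only through its vehicle level. POLL, a gap-filling repair polymerase, rose by 0.52 ± 0.09 on the log2 scale.

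Markers of G2 and mitosis moved with the set. All 16 were lower, 6 of them by at least 2-fold, with a median of -0.90, and their summed level was 468 and 476 FPKM with MGH-CP1 and 894 and 935 FPKM with vehicle. MKI67 had the largest of these falls at -1.38 ± 0.08 and KIF20A the smallest at -0.33 ± 0.06. The part of a change in the share of cycling cells in the falls of the fork and origin genes was not tested. Of 12 reference transcripts 4 were lower, 3 were higher and 5 did not pass, with a median of -0.04. The share called lower was 33.3%, against 25.1% over all genes tested, where 20.0% were higher. The difference between the set and any of these lists was not tested.

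**Figure D5:**
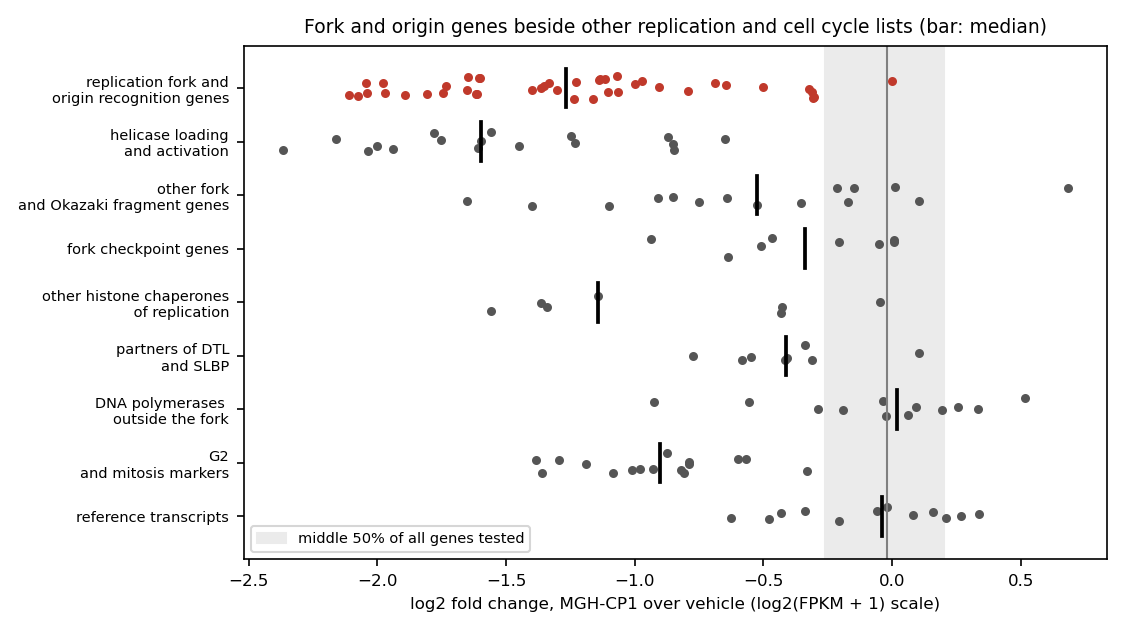
Log2 fold change of MGH-CP1 over vehicle (log2(FPKM + 1) scale) for each of the 42 fork and origin genes in the top row and for the tested genes of 8 other lists below, each gene a point with the list's median as a bar and the middle 50% of all tested genes shaded. Medians are -1.27 for the fork and origin genes, -1.60 for helicase loading and activation, -0.90 for G2 and mitosis markers and 0.02 for DNA polymerases outside the fork.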

How the data were processed

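The authors deposited 1 table of FPKM values for 48162 genes with 1 column per library, on hg19. Per the submitters' processing notes, base calls came from CASAVA 1.8 and reads were aligned with STAR. Neither the read counter nor the annotation release is stated there. Times gene length, each library's deposited values fell on whole steps (100% of values above 0 within 0.001), which gave the reads quoted. Genes averaging 1 FPKM or more (11790, all 42 of the set among them) were fitted as log2(FPKM + 1) with limma 3.58.1 in R 4.3.3, with group as the only term, a trended prior and Benjamini-Hochberg adjustment. The limma fit, but none of the other steps, was tested on simulated data. Replicate libraries differed by more than sampling noise, so each counted as 1. The genes and lists were chosen with earlier results of these data known. Values are given per library for every gene of a class of 6 or fewer, and in the larger class for PCNA, the extremes and any gene whose call was lost. Promoters are RefSeq's, on GRCh38.p14. Alternatives were another pseudocount (0.1), low-value filter (none, or 5 FPKM), scaling and variance prior, voom, a replicate block and leaving out each library.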

Additional observations from a re-analysis of the deposited data

How the results depend on the processing

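Under 12 alternatives, 487 of 499 gene values of the set kept both their direction and their side of the threshold, 10 calls were lost and ORC4, never called, changed sign in 2. The count of lower genes was 41 under another pseudocount, scaling, voom and prior, 39 with no filter and 36 of the 37 left at a mean of at least 5 FPKM, and 37 to 41 when a library was left out. The calls of RFC1 and ORC2 were lost with no filter (limma, adjusted p = 0.0608 and 0.0616), where 24640 genes are tested. The count of falls of at least 2-fold was 25 to 32. The place of CLSPN as the largest fall depended on the scale and on single libraries. DSCC1 fell by more with a pseudocount of 0.1 (log2 fold change -2.62, against -2.43 for CLSPN). The same held with voom (-2.69 for DSCC1, against -2.47 for CLSPN). GINS2 also fell slightly more than CLSPN in both settings (-2.433 against -2.431, and -2.50 against -2.47). Without MGH-CP1 replicate 1, the log2 fold change was -1.91 for CLSPN and -2.03 for DSCC1. Without vehicle replicate 1 it was -2.103 for CLSPN and -2.107 for DSCC1. CLSPN fell by more than DSCC1 when either replicate 2 was left out. The log2 difference of ORC4 ranged from -0.044 to 0.047 when a library was left out. Over all genes, the number called higher was 1568 with no filter and 1460 to 2556 when a library was left out (lowest without MGH-CP1 replicate 2, then 1524 without MGH-CP1 replicate 1), against 2355. Genes called lower by at least 2-fold numbered 435 with a pseudocount of 0.1 and 446 with voom, against 276, and 288 to 308 when a library was left out. A smaller pseudocount shrinks the log2 falls of genes of low level less, so more of them can pass the 2-fold limit. The causes of the other differences were not tested. Whether the replicate numbers pair the samples is not stated in the labels. Deviations from the group mean of libraries with the same number correlated at 0.05 across genes. With 2 libraries per group, replicate 2 mirrors replicate 1, so this is 1 value and it cannot settle the pairing. With a replicate block 41 of the 42 were lower, 30 of them by at least 2-fold, out of 3036 lower and 2453 higher genes in all.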
